A study of Mus musculus with 9 samples.

Results

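Tuft cells are rare chemosensory cells of the intestinal epithelium, and 9 genes used to mark them were followed here across intestinal organoids in which TGF-beta signalling was blocked or stimulated. The genes were Dclk1, Avil, Rgs13, Trpm5, Pou2f3, Alox5ap, Gfi1b, Ptgs1 and Sh2d6. Their members on the array were all probe sets (groups of short probes that together read 1 transcript) whose annotated symbol was one of these names. This gave 8 of the 18193 genes that the annotation names and 18 of the 45101 probe sets of the table, 9 of them for Dclk1, 3 for Trpm5 and 1 each for Avil, Rgs13, Pou2f3, Alox5ap, Gfi1b and Sh2d6. The annotation used here names no probe set for Ptgs1, so that gene has no value.

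RNA came from organoids of mouse small intestine, which are epithelial structures grown in culture, and was hybridised to the Affymetrix whole-genome mouse array for 3' expression. The 9 arrays formed 3 groups of 3. The first group had no treatment, the second an inhibitor of the TGF-beta receptors Tgfbr1 and Tgfbr2 at 20 uM, and the third the Tgfb1 ligand at 0.04 ng/mL. All cultures were grown for 6 days, and both agents were present for 5 days, from day 1. The labels name neither the inhibitor nor a vehicle, and they give no strain, age or genotype. They also leave unsaid whether the 3 replicates of a group were grown apart, so the spread behind each p-value here is that of arrays and could be purely technical. Organoids of this kind hold epithelial cells, without the immune cells that signal to tuft cells in the gut.

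In the gut, tuft cells sense luminal compounds through receptors and a signalling chain shared with taste cells, and they answer with the cytokine Il25, acetylcholine and lipid mediators made from arachidonic acid. Interleukins 4 and 13 from immune cells drive more progenitors into this fate, for which the transcription factor Pou2f3 is required. TGF-beta binds a pair of receptor kinases that pass the signal to Smad proteins, and in this epithelium the pathway restrains growth and promotes differentiation.

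Values are signals, an intensity per probe set and array on a linear scale, and the number of arrays limits their precision. The median signal of an array lay between 46.1 and 57.9, and the 40th percentile of an array, used as the lower limit for testing and called the filter level, was a signal of 25.9 to 32.0. Changes are log2 differences of signal + 16, given as estimate ± SE, and folds are on the same scale, so changes of low signals are understated. A probe set is called, or said to have risen or fallen, where limma's Benjamini-Hochberg adjusted p over the 28655 probe sets tested was under 0.05. Of 8 tested genes of the TGF-beta response, 3 were higher and 2 lower under the inhibitor (median log2 change 0.05), and 4 were higher and 1 lower with the ligand (0.65). All genes gave 19.9% higher and 22.6% lower under the inhibitor, and 12.8% and 8.04% with the ligand. The list's summed signal was 8413 to 8550 with the inhibitor, 6412 to 7137 untreated and 7815 to 8704 with the ligand, so it was not lowest under the inhibitor. The feedback gene Pmepa1 had mean signals of 83.7 with the inhibitor, 204.5 untreated and 630.9 with the ligand. Skil, a repressor induced by the pathway, had means of 954.9, 951.8 and 2311 in the same order. The cell cycle inhibitor gene Cdkn2b went the other way, from 1780 to 983.8 and 633.0, and Ccn2, a matrix-associated target, had means of 67.2, 29.2 and 189.1. In bulk RNA, fewer cells of a type and less RNA per cell cannot be told apart, and this holds for every result below.

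The RefSeq table of start regions (build GRCm38.p6) held windows for 7 of the 9 genes, all but Alox5ap and Pou2f3, and 8 windows in all since Dclk1 has 2 start sites. Each window runs from 250 bases before to 50 bases after the start. Those of the 3 members that were called in both comparisons with untreated and have a window are shown. The searched letters, on both strands, were the octamer ATGCAAAT bound by POU factors such as Pou2f3, its first 7 letters ATGCAAA, which any octamer match contains, and CAGAC, a short element bound by Smad proteins. The 7-letter form was chosen after the windows had been seen. Matches are in capitals.
Avil, chr10:127000459-127000758, plus strand: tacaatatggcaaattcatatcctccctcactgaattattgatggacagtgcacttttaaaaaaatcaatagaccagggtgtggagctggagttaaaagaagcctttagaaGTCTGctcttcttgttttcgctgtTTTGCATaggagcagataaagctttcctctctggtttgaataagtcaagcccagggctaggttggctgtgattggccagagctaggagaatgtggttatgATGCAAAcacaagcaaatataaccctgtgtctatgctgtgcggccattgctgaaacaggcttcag
Rgs13, chr1:144177323-144177622, minus strand: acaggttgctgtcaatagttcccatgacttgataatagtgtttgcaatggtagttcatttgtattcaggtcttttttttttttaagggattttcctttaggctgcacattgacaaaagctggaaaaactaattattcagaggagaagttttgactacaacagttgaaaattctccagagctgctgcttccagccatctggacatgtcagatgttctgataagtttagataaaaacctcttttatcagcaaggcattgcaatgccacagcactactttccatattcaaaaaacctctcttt
Dclk1, chr3:55242114-55242413, plus strand: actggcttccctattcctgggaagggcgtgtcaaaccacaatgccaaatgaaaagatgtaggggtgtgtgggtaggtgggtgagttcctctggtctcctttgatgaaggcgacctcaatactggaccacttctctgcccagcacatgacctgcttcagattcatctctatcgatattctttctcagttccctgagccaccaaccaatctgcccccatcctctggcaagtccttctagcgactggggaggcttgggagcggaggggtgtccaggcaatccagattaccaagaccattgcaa
Dclk1, chr3:55461478-55461777, plus strand: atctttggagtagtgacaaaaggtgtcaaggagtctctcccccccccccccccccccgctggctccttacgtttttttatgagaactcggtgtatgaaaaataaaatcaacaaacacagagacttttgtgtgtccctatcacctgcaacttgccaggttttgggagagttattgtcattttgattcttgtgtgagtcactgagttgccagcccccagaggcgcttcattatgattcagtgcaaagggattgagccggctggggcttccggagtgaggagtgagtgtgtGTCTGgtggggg
None of the 8 member windows held the full octamer, which was present in 1.74% of 32851 windows in the table. ATGCAAA was found in the Avil window alone, starting 115 and 15 bases before the start site, and in 4.63% of all windows. CAGAC was present in 4 of the 8 member windows and in 49.6% of all windows. A match says only that these letters are there, and the absence of one says nothing about binding of the factor.

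Under the inhibitor, 4 of the 8 measured markers fell, Rgs13 by the most, and limma called none higher. With the ligand 5 of the 8 rose and none fell. At an unadjusted p under 0.05 these counts were 4 lower and 0 higher, and 6 higher and 0 lower. Dclk1, Avil, Rgs13 and Alox5ap were called in both comparisons, Trpm5 in that with the ligand, and Gfi1b, Pou2f3 and Sh2d6 in neither. These counts take the brightest probe set of each gene. Over all 12941 genes taken the same way, 22.6% were lower and 19.9% higher under the inhibitor, and 12.8% were higher and 8.04% lower with the ligand. Ligand against inhibitor called 7 of the 8 markers higher and none lower, where all genes gave 31.7% and 22.2%. Among the 7, Pou2f3 and Sh2d6 each lost the call when either of 2 arrays was left out. Pou2f3 also passed the filter only with its ligand arrays. The median log2 change of the 8 markers was -0.66 under the inhibitor and 1.05 with the ligand, beside -0.01 and 0.05 for all genes. Both comparisons share the 3 untreated arrays, so they are not independent of each other.

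**Figure D1:**
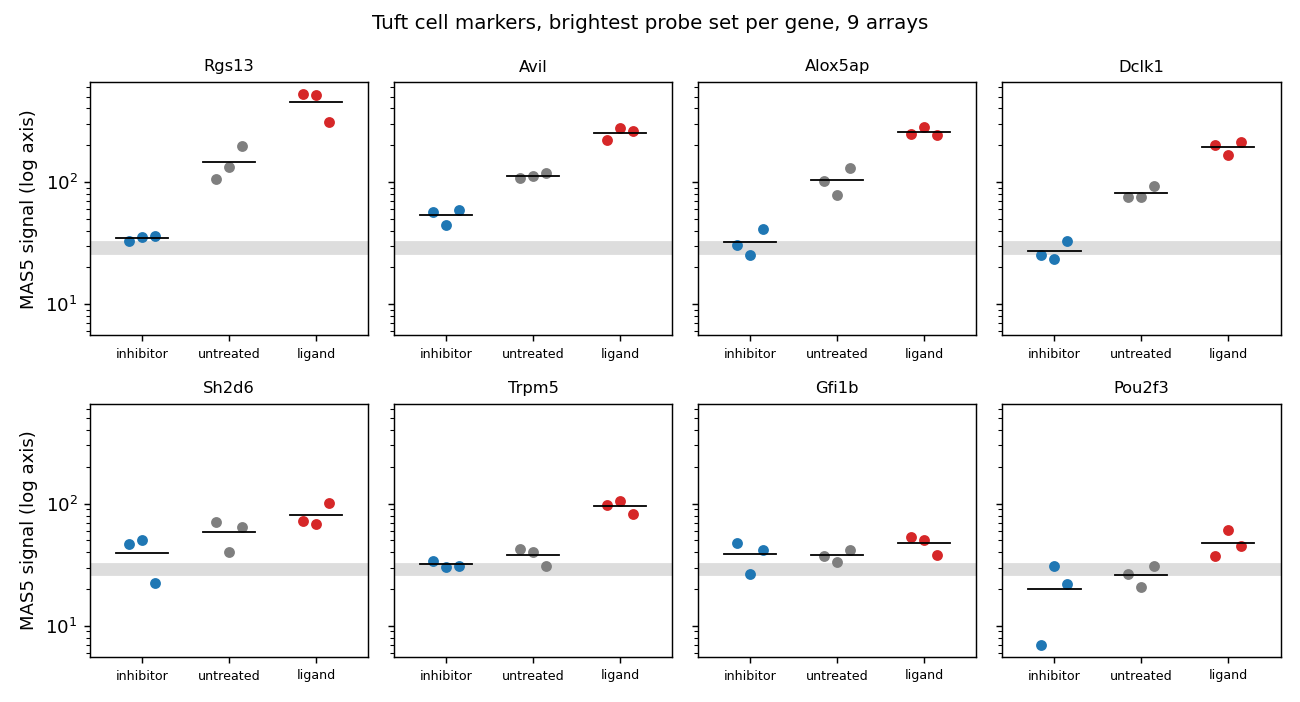
Signals of the 8 tuft cell markers with a probe set, each on its brightest probe set, on a log axis. Points are the 3 arrays of each group, lines their means and the grey band the filter level of 25.9 to 32.0. For Rgs13, Avil, Alox5ap and Dclk1 the 3 groups do not overlap, while for Gfi1b the groups lie on top of each other.

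Rgs13, a regulator that shortens G protein signals, had the largest changes among the markers. Its signals were 106.3, 133.6 and 195.5 in untreated arrays, 32.6, 35.6 and 36.1 with the inhibitor and 526.4, 516.0 and 307.5 with the ligand. The 3 groups did not overlap, and the lowest ligand array was still above the highest untreated array. The inhibitor lowered it by a log2 change of -1.63 ± 0.21 (3.09-fold, adjusted p 7.89e-05), to just above the filter level. The ligand raised it by 1.53 ± 0.21 (2.89-fold, adjusted p 3.91e-04). Between the ligand and the inhibitor the difference was 3.16 ± 0.21, or 8.94-fold (adjusted p 1.50e-07).

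Alox5ap encodes the protein that presents arachidonic acid to 5-lipoxygenase, the first step towards leukotrienes. Its signals were 102.0, 77.5 and 131.0 untreated, 30.6, 25.0 and 41.3 with the inhibitor and 245.4, 284.2 and 242.0 with the ligand. Again no group overlapped another, and the inhibitor arrays lay around the filter level. It fell by 1.30 ± 0.18 under the inhibitor (2.46-fold, adjusted p 1.06e-04) and rose by 1.21 ± 0.18 with the ligand (2.32-fold, adjusted p 5.36e-04). Ligand exceeded inhibitor by 2.51 ± 0.18, or 5.69-fold (adjusted p 2.08e-07).

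Avil, an actin-binding protein of the villin family found in the tuft cell's apical bundle, had untreated values within a narrow range. Its signals were 108.2, 111.9 and 117.3 untreated, 56.4, 44.4 and 58.6 with the inhibitor and 219.3, 274.2 and 262.5 with the ligand. All 9 arrays were above the filter level and the groups were fully separated. The change was -0.90 ± 0.13 under the inhibitor (1.86-fold lower, adjusted p 1.60e-04) and 1.06 ± 0.13 with the ligand (2.08-fold higher, adjusted p 1.50e-04). From inhibitor to ligand it differed by 1.95 ± 0.13, or 3.88-fold (adjusted p 1.27e-07).

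Dclk1, a microtubule-associated kinase and the most used tuft cell marker in mouse intestine, was read by 9 probe sets that did not all carry signal. On the brightest, 1435940_at, the signals were 75.2, 75.0 and 93.3 untreated, 25.1, 23.6 and 32.8 with the inhibitor and 201.8, 167.7 and 212.2 with the ligand. The groups were separate, and the inhibitor arrays lay at or near the filter level. This probe set fell by 1.17 ± 0.15 (2.25-fold, adjusted p 6.34e-05) and rose by 1.11 ± 0.15 (2.16-fold, adjusted p 2.95e-04), and ligand and inhibitor were 2.28 ± 0.15 apart (4.86-fold, adjusted p 1.15e-07).

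On the next Dclk1 probe set, 1450863_a_at, the signals were 69.7, 77.5 and 90.6 untreated, 32.9, 32.3 and 36.6 with the inhibitor and 140.8, 164.6 and 168.3 with the ligand. It showed the same separation, with changes of -0.93 ± 0.14 (adjusted p 2.20e-04) and 0.87 ± 0.14 (adjusted p 0.00105). On 1424271_at the signals were 38.8, 39.3 and 29.0 untreated, 8.3, 13.0 and 11.03 with the inhibitor and 76.5, 68.3 and 76.4 with the ligand. The inhibitor arrays were all below the filter level there, and the changes were -0.95 ± 0.17 (adjusted p 9.78e-04) and 0.80 ± 0.17 (adjusted p 0.00756).

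A further pair of Dclk1 probe sets were only partly called. On 1451289_at the inhibitor arrays read 1.2, 1.8 and 1.0 against 25.1, 36.4 and 38.9 untreated, and the change was -1.50 ± 0.20 (adjusted p 8.47e-05). Its ligand signals of 58.2, 63.97 and 45.4 were all above the untreated arrays, yet the change of 0.54 ± 0.20 did not pass (adjusted p 0.0899). On 1446190_at the inhibitor arrays were uneven, at 34.1, 10.7 and 8.7, and overlapped the untreated signals of 25.7, 35.3 and 39.3, with a change of -0.61 ± 0.25 (adjusted p 0.0771). There the ligand signals of 61.3, 72.0 and 66.8 lay above the untreated arrays, with a change of 0.75 ± 0.25 (adjusted p 0.0622). Ligand against inhibitor was called on both, at 2.04 ± 0.20 on 1451289_at (adjusted p 3.37e-06) and 1.36 ± 0.25 on 1446190_at (adjusted p 6.31e-04).

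The other 4 Dclk1 probe sets, 1423125_at, 1424270_at, 1436659_at and 1451917_a_at, did not reach the filter level on the 3 arrays required and were not tested. Their group means ranged from 2.9 to 20.1, and on none of them did any pair of groups separate. On 1423125_at, for example, the means were 20.1 ± 9.0 with the inhibitor, 16.7 ± 4.3 untreated and 16.9 ± 7.8 with the ligand. Dclk1 was therefore described from the 5 probe sets that passed.

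**Figure D2:**
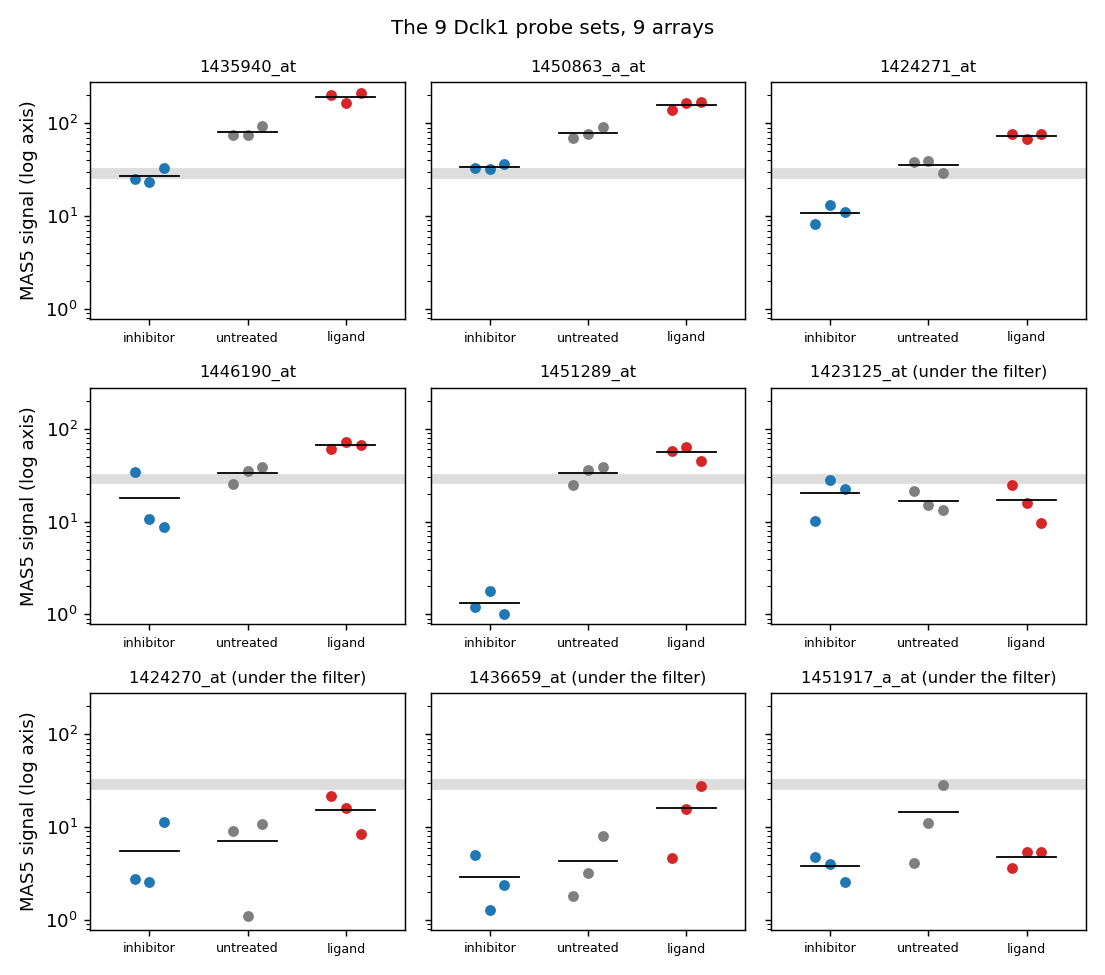
Signals of the 9 Dclk1 probe sets on a log axis, with points for the 3 arrays of each group, lines for their means and a grey band for the filter level of 25.9 to 32.0. The first 5 passed the filter and have their ligand arrays above their untreated arrays, and the 4 marked as under the filter show no separation.

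Trpm5, a cation channel opened by calcium at the end of the taste-type signalling chain, was called with the ligand and not with the inhibitor. On its brightest probe set, 1418783_at, the signals were 42.8, 40.6 and 31.2 untreated, 34.2, 30.5 and 30.7 with the inhibitor and 98.3, 104.5 and 82.4 with the ligand. The ligand arrays stood clear of both other groups, which overlapped at or somewhat above the filter level. The ligand raised it by 1.04 ± 0.16 (2.05-fold, adjusted p 7.87e-04), while the change under the inhibitor was -0.18 ± 0.16 (adjusted p 0.436). Whether its response to the inhibitor differed from that of Dclk1 or Rgs13 was not tested.

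Signals of both other Trpm5 probe sets lay near or under the filter level in untreated arrays. On 1449224_at the ligand signals of 55.6, 80.5 and 39.5 were above the untreated signals of 25.4, 21.2 and 21.9, a rise of 0.90 ± 0.23 (adjusted p 0.0187), and the change under the inhibitor was -0.07 ± 0.23 (adjusted p 0.853). This probe set passed the filter through its ligand arrays alone. On 1443413_s_at the signals were 4.9, 11.9 and 32.9 untreated, 4.0, 2.8 and 3.0 with the inhibitor and 38.2, 26.5 and 58.1 with the ligand. The untreated arrays spread widely, and neither comparison with untreated passed the threshold (-0.67 ± 0.31, adjusted p 0.114, and 0.86 ± 0.31, adjusted p 0.0804). Between ligand and inhibitor all 3 Trpm5 probe sets were called, with differences of 0.97 ± 0.23 to 1.53 ± 0.31. The largest was that of 1443413_s_at, which passed the filter on 2 ligand arrays and 1 untreated array. For this probe set and 1449224_at the filter itself favoured a difference, so the 3 calls are not separate evidence.

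Pou2f3, the POU-domain factor on which the tuft cell fate depends, was read at low signals throughout. Its signals were 26.6, 20.9 and 31.1 untreated, 6.9, 31.0 and 21.9 with the inhibitor and 37.2, 60.4 and 44.7 with the ligand. All ligand arrays were higher than all others, and the untreated and inhibitor arrays overlapped around or under the filter level. It was above that level on 3 ligand arrays, 1 untreated and 1 inhibitor array, so it passed the filter only with its ligand arrays. The changes against untreated were -0.28 ± 0.26 (adjusted p 0.438) and 0.58 ± 0.26 (adjusted p 0.163), neither past the threshold. Between the ligand and the inhibitor it was higher by 0.86 ± 0.26 (adjusted p 0.0153), a call lost without inhibitor replicate 1 (adjusted p 0.0652) or ligand replicate 2 (adjusted p 0.0649).

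Sh2d6, an SH2-domain protein enriched in tuft cells, had signals of 70.5, 40.01 and 64.3 untreated, 47.1, 50.1 and 22.4 with the inhibitor and 72.8, 68.4 and 100.7 with the ligand. Untreated and inhibitor arrays overlapped, as did untreated and ligand arrays, and the changes of -0.43 ± 0.24 (adjusted p 0.191) and 0.39 ± 0.24 (adjusted p 0.319) did not pass. Ligand arrays were higher than inhibitor arrays by 0.82 ± 0.24 (adjusted p 0.0129). Without inhibitor replicate 3 or ligand replicate 3 this was no longer called (adjusted p 0.0600 and 0.0518).

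Gfi1b, a zinc-finger repressor known from erythroid cells and megakaryocytes as well as from tuft cells, was the one marker called in none of the 3 comparisons. Its signals were 37.3, 33.5 and 42.2 untreated, 47.4, 26.5 and 42.0 with the inhibitor and 53.7, 50.2 and 38.0 with the ligand. All pairs of groups overlapped. The changes were 0.01 ± 0.19 (adjusted p 0.980), 0.23 ± 0.19 (adjusted p 0.481) and, for ligand against inhibitor, 0.22 ± 0.19 (adjusted p 0.371).

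**Figure D3:**
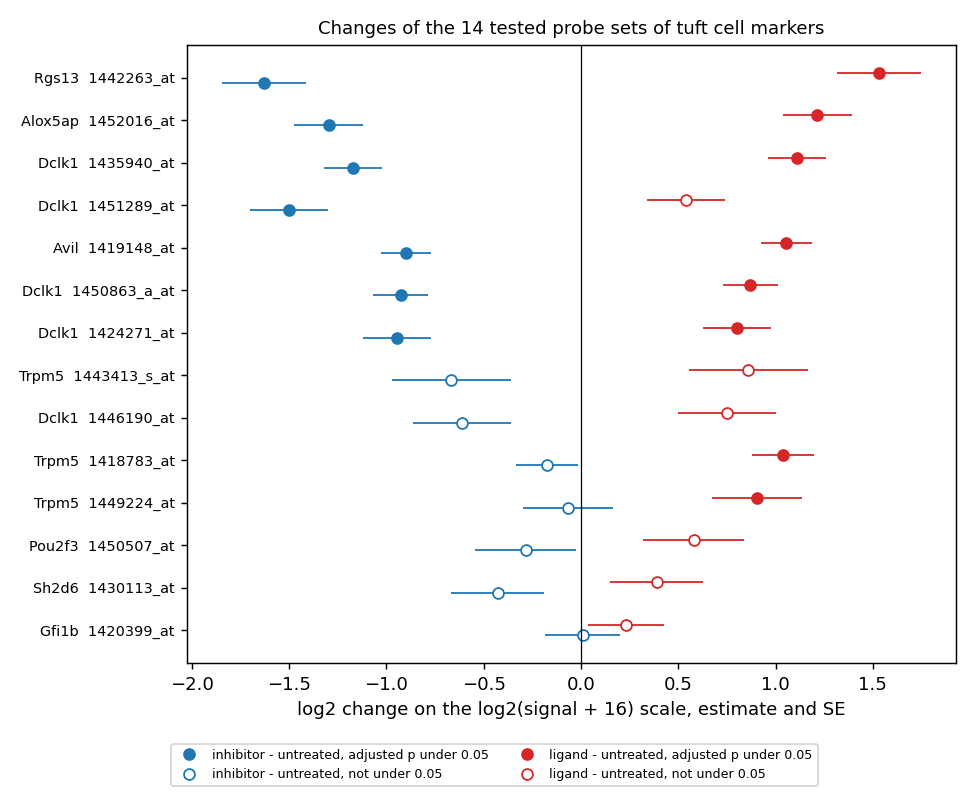
Log2 changes of the 14 tested probe sets under the inhibitor (blue) and with the ligand (red), each against untreated, as estimate and SE on the log2(signal + 16) scale. Filled points have an adjusted p under 0.05 and open points do not. Filled blue points run from -1.63 to -0.90 and filled red points from 0.80 to 1.53.

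Counted by probe set, 7 of the 14 tested were called lower under the inhibitor and none higher, against a background of 20.1% lower and 15% higher among all probe sets tested. With the ligand 8 were called higher and none lower, where the background was 9.73% higher and 5.92% lower. Without untreated replicate 1 the calls with the ligand over all probe sets went from 4482 (15.6%) to 2910 (10.2%), with 8 of the tuft cell probe sets called in either case. Ligand against inhibitor gave 13 of 14 higher and none lower, beside 29.4% and 17.9%. Probe sets of 1 gene share their transcript and are not independent. The filter itself favoured a difference for at least 4 of the 14, of which 1 reached it in ligand arrays alone and 3 in untreated and ligand arrays but in no inhibitor array. Pou2f3 is not among these 4, yet it too needed its ligand arrays to pass. With no filter all 18 probe sets were fitted, and 7 were called lower under the inhibitor (background 11.4%), 8 higher with the ligand (5.19%) and 14 higher with ligand than with inhibitor (17.7%). Without any test, all inhibitor arrays lay under all untreated arrays in 8 of the 18 (19.4% of all probe sets), and all ligand arrays lay above them in 11 of the 18 (15.7%). Ligand arrays lay above all inhibitor arrays in 13 of the 18 (24.1%). Ligand above untreated above inhibitor in every array was seen for 7 probe sets, 4 of Dclk1 and those of Avil, Rgs13 and Alox5ap, an order shown by 7.89% of the tested probe sets and 5.1% of all.

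The balance of calls over all probe sets depended on scaling. Of those called, 42.8% were higher under the inhibitor and 54.5% after arrays were centred on their medians. With the ligand against untreated the share higher was 62.2%, and 50.8% after quantile normalization or 35.7% after centring. For ligand against inhibitor these shares were 62.1%, 51.1% and 40.7%. The counts of called tuft cell probe sets were 7, 8 and 13 under each of these scalings.

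Ordered by mean untreated signal on the brightest probe set, the markers ran from Rgs13 (145.1 ± 45.7) through Avil (112.5 ± 4.6), Alox5ap (103.5 ± 26.8), Dclk1 (81.2 ± 10.5), Sh2d6 (58.3 ± 16.1), Trpm5 (38.2 ± 6.2) and Gfi1b (37.7 ± 4.3) to Pou2f3 (26.2 ± 5.1). Signals of different probe sets depend on their probes, so this order is one of signals and not of RNA amounts. Rgs13 lay at percentile 65.0 of all probe sets in untreated arrays, 44.7 with the inhibitor and 78.5 with the ligand. Dclk1 lay at 57.3, 39.96 and 67.7 in the same groups. Pou2f3 was at 39.2, 33.6 and 47.8, so its signal stayed below the median probe set in all 3 groups.

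Over the 9 arrays, each pair of Dclk1, Avil, Rgs13 and Alox5ap had Pearson's r of 0.97 to 0.99 on the log2 scale. These 4 were picked for being called in both comparisons, which by itself gives a high r. The values mostly carry the separation of the 3 groups. After each group's mean was taken out, the same pairs had r of -0.05 to 0.56, a wide range that includes values near 0. With Dclk1, Gfi1b had r of 0.45 and Pou2f3 of 0.75 over the 9 arrays.

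Outside the markers, the 5 genes with the profile most like that of Dclk1 over the 9 arrays were Noxo1, an organiser of an epithelial NADPH oxidase (r 0.997), Fgfr2, a receptor for fibroblast growth factors (0.996), 4933439C10Rik (0.996), Farp1 (0.995) and the desmosomal plakophilin Pkp1 (0.995). The mean signal of Fgfr2 went from 111.1 with the inhibitor to 324.1 untreated and 848.8 with the ligand. Such likeness was common, since 1383 of 12933 genes had r over 0.9 with Dclk1. For Pou2f3 the closest were Gm29538 (0.963), Fam110b (0.956), Zfp395 (0.948), Zfp157 (0.932) and A530020G20Rik (0.931), and 13 genes had r over 0.9. The arrays of a group share its treatment, so these values mostly describe the group pattern.

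Of 11 transcription factors listed for tuft cells or their progenitors and present on the array, 9 were tested, and all 9 fell under the inhibitor with a median log2 change of -1.07. With the ligand 6 of them rose and 1 fell. The one that fell, 1810046K07Rik, had means of 115.0 ± 15.5 with the inhibitor, 178.9 ± 14.6 untreated and 85.2 ± 10.4 with the ligand. Its change with the ligand was -0.95 ± 0.13 (adjusted p 3.86e-04), against the direction of the called tuft cell markers. Over all genes 22.6% were lower under the inhibitor, and 12.8% were higher and 8.04% lower with the ligand. Several are not particular to tuft cells: Ascl2 and Sox9 are also stem cell markers, and Atoh1 specifies other secretory cells. Ascl2 had mean signals of 154.5 ± 7.6 with the inhibitor, 555.5 ± 57.4 untreated and 1233 ± 32 with the ligand. Atoh1 went from 119.4 ± 11.9 to 321.7 ± 37.2 and 486.4 ± 59.4 in that order, and the Ets factor Ehf from 645.8 ± 20.0 to 1493 ± 83 and 2506 ± 69. Sox4, a factor of secretory progenitors, fell by 1.02 ± 0.08 and rose by 0.60 ± 0.08. Hmx2 and Hmx3 did not pass the filter.

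A wider list of tuft cell genes was split under the inhibitor. Of its 41 genes on the array 33 were tested, and under the inhibitor 6 were lower and 4 higher (background 22.6% and 19.9% of genes), with a median change of -0.10. With the ligand limma called 9 higher and none lower, beside 12.8% and 8.04%, with a median of 0.27, and at an unadjusted p under 0.05 these counts were 16 and 1. Nrep, a neuronal regeneration protein, rose with the ligand by 1.59 ± 0.19 (adjusted p 1.11e-04), from a signal of 97.4 ± 19.1 to 330.8 ± 104.6. Fam221a fell under the inhibitor by 1.13 ± 0.14, from 216.2 ± 16.6 to 90.3 ± 14.8. Against that direction, the actin bundler Espn rose under the inhibitor by 1.08 ± 0.12 and Ildr1, a tricellular junction receptor, by 1.31 ± 0.14. Ildr1 also rose with the ligand, by 0.62 ± 0.14 (adjusted p 0.0115). Tspan6 likewise rose with both agents, by 0.73 ± 0.14 and 0.85 ± 0.14, so the 9 higher with the ligand include genes that rose under the inhibitor. Il25, the cytokine that defines tuft cell output, had mean signals of 1.7 to 2.3 in the 3 groups and did not pass the filter.

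Of 11 genes of the taste-like chain around Trpm5 on the array, 7 were tested, with 2 higher and none lower under the inhibitor and 1 higher and none lower with the ligand (limma; 3, 0, 2 and 0 at an unadjusted p under 0.05). With 7 genes, the higher counts are near the 19.9% and 12.8% of all genes. The one that rose with the ligand was the calcium store channel Itpr2 (0.58 ± 0.12, from 88.1 to 138.9). Gng13, the G protein gamma subunit of taste cells, had signals of 19.4 with the inhibitor, 30.0 untreated and 50.3 with the ligand, with changes of -0.37 ± 0.20 (adjusted p 0.169) and 0.54 ± 0.20 (adjusted p 0.0862) that did not pass. Its difference between ligand and inhibitor, 0.91 ± 0.20, was called (adjusted p 0.00198). Plcb2 had its highest mean with the inhibitor, 43.2 ± 13.2, against 23.4 ± 11.1 untreated and 30.3 ± 12.4 with the ligand. Its changes of 0.61 ± 0.27 (adjusted p 0.107) and 0.24 ± 0.27 (adjusted p 0.631) did not pass either. Gnai2 and Trpm4, both expressed far beyond tuft cells, rose under the inhibitor by 0.27 ± 0.08 and 0.30 ± 0.08.

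Eicosanoid synthesis is the pathway in which Alox5ap and Ptgs1 act. Of 13 genes tested of 17 on the array, 4 were lower and 2 higher under the inhibitor, beside 22.6% and 19.9% of all genes. With the ligand 4 were higher and 2 lower, beside 12.8% and 8.04%. Pla2g4a, the phospholipase that frees arachidonic acid, had mean signals of 237.0 with the inhibitor, 1160 untreated and 2135 with the ligand, with changes of -2.20 ± 0.12 and 0.88 ± 0.12. Ptgds, a prostaglandin D synthase, had means of 42.0, 108.1 and 546.6, with changes of -1.07 ± 0.18 and 2.21 ± 0.18. In the opposite direction, Hpgd, which inactivates prostaglandins, rose by 1.13 ± 0.08 under the inhibitor and fell by 0.26 ± 0.08 with the ligand. Abcc4, a transporter that exports prostaglandins, rose in both comparisons, by 0.87 ± 0.08 (adjusted p 3.85e-06) and 0.99 ± 0.08 (adjusted p 5.88e-06).

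Genes through which interleukins 4 and 13 reach tuft progenitors were called in 1 comparison with untreated. Of 5 tested, the receptor chains Il4ra (0.53 ± 0.17) and Il13ra1 (0.69 ± 0.10) rose under the inhibitor, and limma called none with the ligand, where 2 were higher at an unadjusted p under 0.05. Over all genes 19.9% were higher under the inhibitor. Stat6, their signal transducer, had changes of 0.02 ± 0.08 in both comparisons. Retnlb, a target of these cytokines, was at signals of 1.4 to 2.6.

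Markers of other epithelial cell types were read in the same samples, beside 22.6% of all genes lower and 19.9% higher under the inhibitor, and 8.04% and 12.8% with the ligand. Stem cell markers fell in 9 of 10 genes under the inhibitor and rose in 1, and with the ligand they rose in 6 of 10. Their summed signal over 10 genes ranged from 13643 to 15299 with the inhibitor, 34966 to 39918 untreated and 43931 to 52725 with the ligand. Over the 8 tuft cell markers the summed signal ranged from 266.7 to 285.9, 533.0 to 705.8 and 1290 to 1525 in the same groups. Goblet cell markers fell in 5 of 10 under the inhibitor, and rose in 1 and fell in 2 with the ligand. Enteroendocrine markers rose in 8 of 10 with the ligand, and under the inhibitor 3 rose and 2 fell. Paneth cell markers fell in 1 of 6 under the inhibitor and rose in 3 of 6 with the ligand, and enterocyte markers rose in 3 of 9 under the inhibitor and fell in 5 of 9 with the ligand. Counts such as 1 of 6 Paneth cell and 2 of 10 enteroendocrine markers lower under the inhibitor, or 1 of 10 goblet cell markers higher with the ligand, are near the shares of all genes. Lgr5, the receptor that marks intestinal stem cells, had mean signals of 1574 with the inhibitor, 2542 untreated and 4236 with the ligand. The part of these values in the tuft cell values was not tested.

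**Figure D4:**
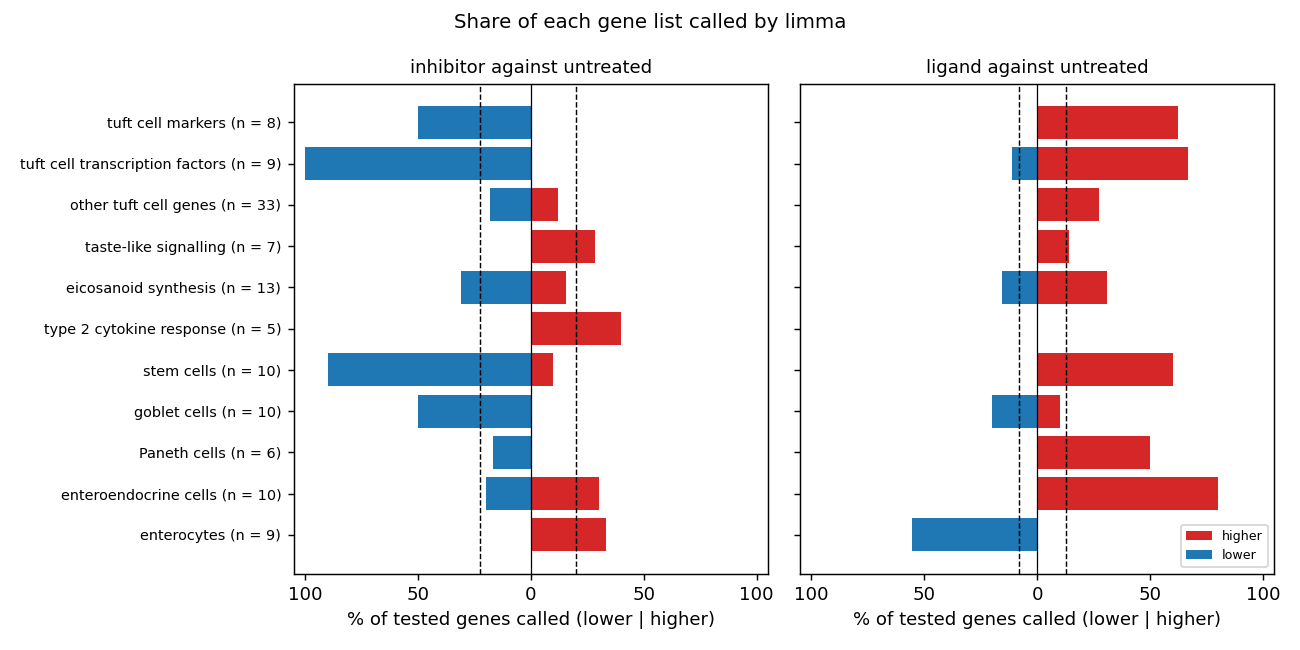
Percent of the tested genes of each list that limma called lower (blue, to the left) or higher (red, to the right), for the inhibitor and for the ligand against untreated, with the number of tested genes after each name. Dashed lines mark the share of all 12941 genes called in that direction (22.6% lower and 19.9% higher under the inhibitor, 8.04% and 12.8% with the ligand). Tuft cell markers and the tuft cell transcription factors extend past the dashed line to the left in the first panel and to the right in the second, as do the stem cell and eicosanoid synthesis lists.

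Since Alox5ap and Rgs13 are also made by leukocytes and Gfi1b by megakaryocytes, markers of those cells were read as well. Of 13 leukocyte genes on the array 8 did not pass the filter, among them Ptprc, the pan-leukocyte antigen, at mean signals of 17.3 untreated, 11.5 with the inhibitor and 16.4 with the ligand. Of the 5 tested, Cd79b and Lyz2 fell and Cd68 and Csf1r rose under the inhibitor, and limma called none with the ligand, where 1 was higher at an unadjusted p under 0.05. Summed over 13 genes their signal ranged from 1109 to 1295 with the inhibitor, 1451 to 1655 untreated and 1651 to 2501 with the ligand. This order was that of Lyz2, a lysozyme gene with means of 745.8, 1212 and 1644. Without it the other 12 genes summed to 406.1 to 491.0, 325.1 to 380.8 and 287.5 to 357.4, the opposite order of medians, a split made after the values were seen. Among 13 genes of mast cells and megakaryocytes 7 did not pass the filter, and of the 6 tested 1 was higher and 1 lower under the inhibitor and 1 higher with the ligand. Their summed signal was 1410 to 1568 with the inhibitor, 1410 to 1467 untreated and 1552 to 1696 with the ligand. Without Gp1bb, the brightest, the other 12 summed to 412.9 to 482.5, 622.8 to 693.1 and 905.5 to 966.5. That is the order of the summed tuft cell markers, and this split too was made after the values were seen. Kit, which some epithelial secretory cells also carry, fell under the inhibitor by 1.51 ± 0.14, and the mast cell protease gene Mcpt2 rose with the ligand by 2.34 ± 0.32, from 21.2 ± 6.4 to 187.2 ± 88.2. The platelet glycoprotein gene Gp1bb, of the megakaryocyte line, rose under the inhibitor by 0.40 ± 0.09 (adjusted p 0.00281), from 789.6 to 1048. Pf4 and Itga2b of the same line had changes of 0.44 ± 0.24 and 0.27 ± 0.15 under the inhibitor and 0.02 ± 0.24 and 0.06 ± 0.15 with the ligand, none past the threshold. Cpa3, Mcpt1, Mcpt4, Fcer1a and Tpsb2, which define mast cells, did not pass the filter, with group means of 0.91 to 28.96. The part of these cells in the tuft cell values was not tested. Markers of fibroblasts (4 of 10 tested), endothelium (1 of 6) and neurons or glia (3 of 5) had 1 gene called lower and 1 higher under the inhibitor. With the ligand limma called none of those 8 genes, and 1 was higher at an unadjusted p under 0.05.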

How the data were processed

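The deposited values are linear intensities that the authors computed with MAS5, per the submitters' processing notes, which name no version. RNA was extracted with the miRNeasy kit and labelled with MessageAmp Premier, per the labels' protocols. The mean trimmed by 2% at each end was 350.0 on every array, so arrays share 1 scale, which hides differences in total RNA. MAS5 leaves dim signals noisy, and 28.9% of values were at or below 16.

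Gene symbols came from GEO's annotation of the platform (34945 with 1 symbol, 932 with several, 9160 unnamed; 64 controls left out). Testing covered the 28655 probe sets that exceeded the 40th percentile of signals in 3 or more of 9 arrays. limma 3.58.1 in R 4.3.3 fitted log2(signal + 16) with a mean per group, 6 residual degrees of freedom, an intensity trend and 2-sided tests, and p-values were adjusted by Benjamini-Hochberg across every probe set tested. For gene lists, the brightest tested probe set represented a gene, one ending in _x_at only where there was no other. The fit was tested on simulated data. The members and lists were chosen with earlier results of these data known. Named genes are all members, up to 4 per list with the smallest p against untreated, the 5 closest in profile to Dclk1 and Pou2f3, and a few others named after their values were seen. Alternatives covered the offset, the filter, normalization, the variance trend, the samples fitted, a replicate block, 1 probe set per gene and leaving out each array.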

Additional observations from a re-analysis of the deposited data

How the results depend on the processing

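Direction and calls of the tuft cell probe sets depended little on the processing. The counts called against untreated were 7 lower with the inhibitor and 8 higher with the ligand, and 13 were higher with ligand than with inhibitor. With 1 probe set per gene they were 4, 5 and 7 of 8 tested, because fewer probe sets entered the fit. Testing above the 60th percentile left 5 of 5 in each comparison. That filter kept the brightest probe sets of Dclk1, Avil, Rgs13 and Alox5ap, which were already called in every comparison. Dclk1's lay at percentile 57.3 untreated, 39.96 with the inhibitor and 67.7 with the ligand. The stricter filter thus favoured a high ligand signal, and its 5 of 5 is no separate evidence. Leaving out each array in turn gave 7 to 8, 7 to 8 and 12 to 13. For the ligand against untreated, an offset of 64 gave 10 of 14. A fit with no intensity trend, or with only the groups compared, gave 9 there. Replicate numbers did not pair the arrays (1 of 9 correlations of same-numbered deviations was over 0.1), and with a replicate block the counts were 7, 8 and 13. Over all probe sets, inhibitor against untreated called 10060, or 5837 with 1 probe set per gene, and ligand against inhibitor called 13544, or 7189. Ligand against untreated called 4482, or 2910 without untreated replicate 1. Of 372 alternatives for single markers, 364 kept direction and call, 4 lost the call and 4 changed direction. The last were changes near 0 under the inhibitor: without 1 array, Gfi1b (0.01 with all) ranged from -0.11 to 0.18, with -0.05 without untreated replicate 2 or inhibitor replicate 3, and Pou2f3 (-0.28 with all) ranged from -0.51 to 0.0094. The filter at the 60th percentile left out the brightest probe sets of Gfi1b, Pou2f3, Sh2d6 and Trpm5. Small changes may go undetected with 3 arrays a group.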
